A study of Mus musculus with 6 samples.

Results

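Neutrophils were chosen by their transcripts from 3 single-cell libraries of mouse quadriceps. The rule was selected on measured values: at least 500 gene UMIs (counted transcript molecules), at least 10 UMIs of S100a8 and S100a9 together, at least 2 of Ltf, Ngp, Retnlg, Lcn2, Camp and Cd177 detected, and at most 1 UMI each of the macrophage complement genes (C1qa, C1qb and C1qc summed) and of the endothelial genes Pecam1 and Cdh5 summed. In all, 146 of 8258 barcodes met the rule. They were 4 of 3161 barcodes in the critical library, 23 of 2902 in the subcritical library and 119 of 2195 in the uninjured library. The study set volumetric muscle loss, in which a 3 mm (critical) defect was cut in the left quadriceps, against a 2 mm (subcritical) defect and against uninjured quadriceps. All groups were male wild-type C57BL/6 mice of 2 to 3 months, taken at day 7 by their labels, with 4 animals per group. A hashtag antibody labelled each animal before pooling, a panel of barcoded antibodies was added, and every group was run as 1 library, so group, pool and library cannot be told apart. With 1 library per group no test between groups was possible, and every interval below is a 95% interval that covers counting error only.

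Neutrophils are short-lived phagocytes that are made in the bone marrow and reach tissue through the blood. They pack their granules in a fixed order: the azurophil granules, with myeloperoxidase and the serine proteases, are filled in early precursors, the specific granules, with lactoferrin and cathelicidin, come next, and the gelatinase granules last. The transcripts of each granule are shut off once it is filled, so the granule messages of a cell show how far it has matured, and receptors for chemokines and growth factors appear at the end. In mouse, dividing precursors are normally kept in the marrow, and mature cells circulate.

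The S100a8 and S100a9 rule, which chose the cells, left few near its limit. The 119 uninjured cells held 10 to 2556 UMIs of the pair (median 440.0), with 1 cell at 10 to 14 UMIs just inside and 1 cell at 5 to 9 UMIs just outside. Of 138 uninjured barcodes that passed on the pair, 12 had fewer than 2 of the 6 granule genes and a further 7 carried complement or endothelial transcripts. The 5 marker genes are all genes of the rule, so their presence follows at least in part from the choice of cells. S100a8 and S100a9 were found in all 119 cells, Ngp in 99, Retnlg in 95 and Ltf in 61. The B cell genes Cd79a, Cd79b and Ms4a1 and the red cell genes Alas2, Car1 and Hemgn had no UMI in these cells. The eosinophil genes Prg2, Epx and Ccr3, the basophil gene Mcpt8 and the monocyte receptor Ccr2 were also at 0. Of the other genes of the eosinophil list, Ear2 had 10 UMIs in 6 cells and Siglecf 4 UMIs in 4 cells, and the mast cell and precursor gene Kit was found in 10 cells, 6 of them in the azurophil-high group described below. Ly6c2, used here as a monocyte marker, was found in 86 cells.

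Neutrophils made up 0.127% of critical barcodes (0.0345 to 0.324), 0.793% of subcritical barcodes (0.503 to 1.19) and 5.42% of uninjured barcodes (4.51 to 6.45). The rule was written with this difference known, so the shares are a description. They are shares of the barcodes of a digest, and the injured libraries held many cells that the uninjured library had few of, such as the 13.6% of critical and 12.4% of subcritical barcodes that were other Ptprc-positive (leukocyte) cells, against 3.01% in the uninjured library. The cells of the injured libraries were shallow, with medians of 803 gene UMIs per critical and 941 per subcritical neutrophil, against 2157 per uninjured neutrophil. All 4 critical neutrophils and 22 of 23 subcritical ones had Ltf, Camp and Ngp at 1% or more of their UMIs, against 67 of 119 uninjured ones. Ltf, Camp and Ngp are among the 6 genes of which the rule asked for 2, and depth differed between the libraries. These counts are therefore a description, and the stages of the libraries cannot be compared from them. Too few cells carried a hashtag call in the injured libraries, 1 and 5, to say which animals they came from. The libraries shared 16 (critical and subcritical), 10 (critical and uninjured) and 16 (subcritical and uninjured) barcode sequences. These included 1, 1 and 2 neutrophil barcodes.

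The uninjured neutrophils came almost entirely from 1 animal. A hashtag was called where the top hashtag had at least 5 counts and at least 70% of a cell's hashtag counts. This assigned 100 of the 119 cells, 84.0%, against 27.1% of the other barcodes. Of the 100, 96 carried hashtag 2, 2 carried hashtag 1, and hashtags 3 and 4 had 1 each. Hashtag 2 also marked 304 of 562 other called cells, or 54.1%. Neutrophils were thus 24.0% (19.9 to 28.5) of the called cells of hashtag 2, against 10.0% of 20 cells of hashtag 1, 1.27% of 79 cells of hashtag 3 and 0.613% of 163 cells of hashtag 4. Over the 3 other hashtags together 4 of 262 called cells were neutrophils, which is 1.53%. Everything that follows on the uninjured cells is therefore mostly a description of 1 mouse, with no spread between animals. The oligonucleotides that make these assignments and the surface readout below are shown next, hashtag 2 because it marks that animal and the others because they marked neutrophils.
Hashtag 2: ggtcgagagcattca
Ly-6G/Ly-6C (Gr-1): tagtgtatggacacg
CD11b: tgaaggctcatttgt

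**Figure D1:**
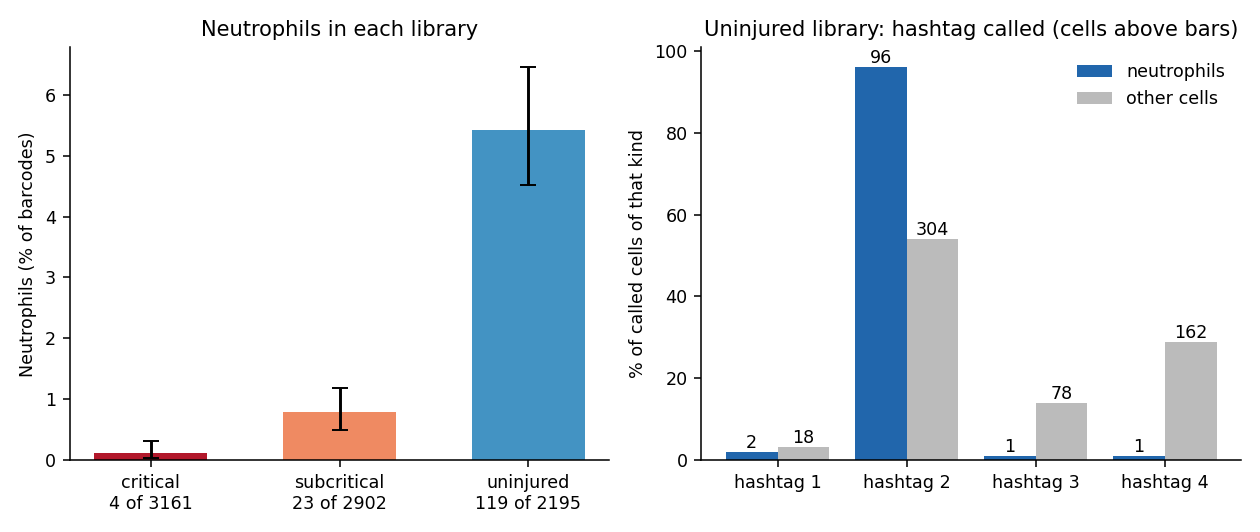
Left: neutrophils as a percentage of barcodes with at least 500 gene UMIs in the critical, subcritical and uninjured libraries, with exact 95% binomial intervals; the shares were 0.127%, 0.793% and 5.42%. Right: of the called cells of the uninjured library, the percentage carrying each hashtag, for 100 neutrophils (blue) and 562 other cells (grey), with the number of cells above each bar; 96 neutrophils sat on hashtag 2.

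Other cells of kinds that are usual in bone marrow sat mostly on the same hashtag, which held 54.1% of all other called cells. Of 55 called Ptprc-positive barcodes of the uninjured library, 37 carried hashtag 2. So did 2 of 3 called barcodes with at least 2 of the T cell genes Cd3d, Cd3e, Cd3g and Trac. In the uninjured library 10 barcodes outside the rule had at least 2 of Vpreb1, Vpreb3, Igll1, Dntt and Rag1, genes of lymphocyte precursors, and all 7 with a call carried hashtag 2. Of 28 barcodes with at least 2 of the B cell genes Cd79a, Cd79b and Ms4a1, 22 were called and 20 of these carried hashtag 2. There were 4 with at least 2 of the red cell precursor genes Alas2, Car1 and Hemgn, and both called ones carried hashtag 2. The B cell and red cell genes were chosen for this count after values were seen. A further 14 barcodes had at least 10 UMIs of the azurophil genes Mpo, Elane, Prtn3 and Ctsg but were not neutrophils by the rule, and all 10 called ones carried hashtag 2. Of these 14, 13 had fewer than 10 UMIs of S100a8 and S100a9. Elane was present in all 14, the stem and precursor genes Cd34 in 7 and Kit in 6, and Camp, Ltf and Retnlg in none. The lymphocyte precursor, B cell, red cell precursor and azurophil kinds numbered 0, 2, 0 and 2 in the critical library and 3, 3, 0 and 7 in the subcritical library. Their part in the neutrophil counts was not tested. The labels name quadriceps as the tissue, and whether the neutrophils and precursors of hashtag 2 lay in the muscle, in its blood or in marrow of the same animal cannot be told apart here.

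Among the uninjured neutrophils the specific granule genes ran over the whole range. The sum of Ltf (lactoferrin, an iron-binding protein), Camp (cathelicidin, an antimicrobial peptide) and Ngp (neutrophilic granule protein) took 0.0% of UMIs in the lowest cell, 2.37% in the median cell and 25.9% in the highest. In steps from low to high, 24 cells were under 0.1%, 17 from 0.1 to 0.5%, 11 from 0.5 to 1%, 5 from 1 to 2%, 12 from 2 to 4%, 16 from 4 to 8%, 25 from 8 to 16% and 9 above 16%. The fewest cells lay at 1 to 2%. At a limit of 1%, 52 cells were granule-low and 67 granule-high, and 16 cells lay between 0.5 and 2%.

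A second set of genes cut across this split. In 9 cells the azurophil genes Mpo, Elane, Prtn3 and Ctsg took 3.76 to 7.05% of UMIs (median 5.53%), while the highest of all other neutrophils had 0.632%. These azurophil-high cells were 4 of the granule-low and 5 of the granule-high cells. This grouping was made after the values were seen. It leaves 3 groups, called here azurophil-high (9 cells), intermediate (62 cells, granule-high without azurophil genes) and late (48 cells, granule-low without azurophil genes). Of the called cells, 8 of 8, 50 of 52 and 38 of 40 carried hashtag 2, so each group came mainly from the same animal.

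The groups differed in depth as well. Azurophil-high cells had a median of 16004 gene UMIs and 3410 genes, intermediate cells 3158 UMIs and 1009 genes, and late cells 1624 UMIs and about 610 genes. Ribosomal protein genes took a median of 19.3% of UMIs in azurophil-high cells, 3.82% in intermediate cells and 3.15% in late cells, and the lowest azurophil-high cell, at 18.5%, was above the highest of the others, at 14.9%. The 9 azurophil-high cells held 134219 of the 445546 UMIs of all 119 cells, so sums over the granule-low and granule-high cells lean on them. Cell-cycle genes were compared after thinning every cell to 500 UMIs: at least 2 of 9 such genes were found in 2 of 9 azurophil-high cells, 7 of 62 intermediate cells and 0 of 48 late cells, which allows up to 6.25% of cells with 2 such genes at this depth (3 cells of 48) and sets no limit on the share of dividing cells. The same count was 5 of 985, 0.508%, in endothelial barcodes of the library.

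**Figure D2:**
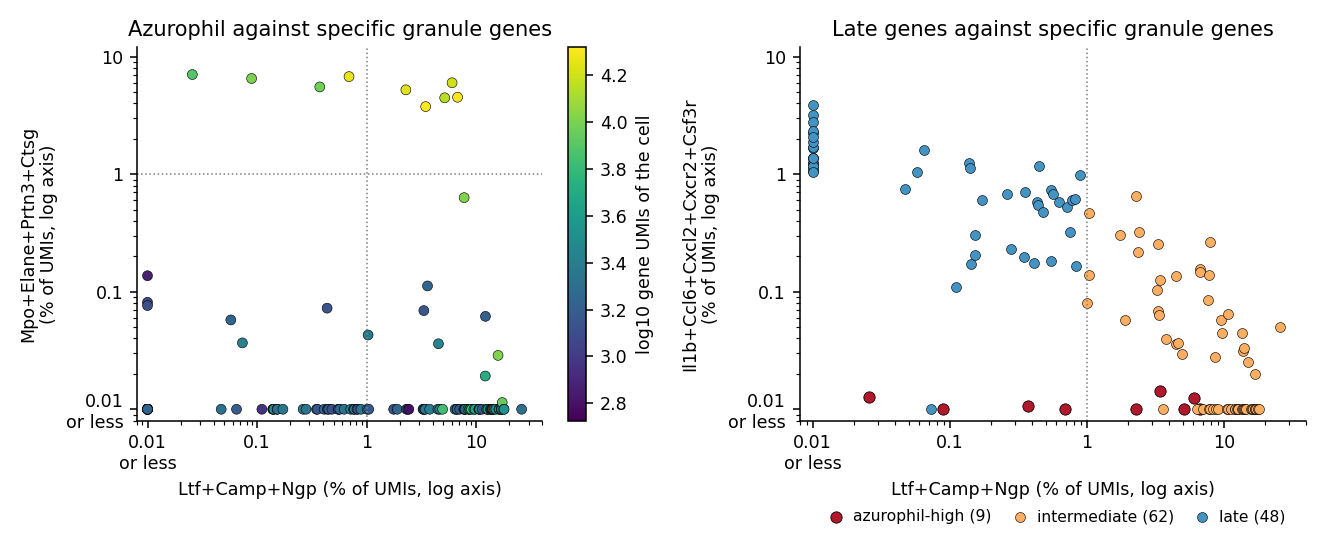
Each point is 1 of the 119 uninjured neutrophils, on log axes with values under 0.01% drawn at 0.01%. Left: azurophil genes against Ltf, Camp and Ngp as percentages of gene UMIs, coloured by the log10 gene UMIs of the cell; 9 cells stand at 3.76% or more, apart from the rest. Right: 5 late genes (Il1b, Ccl6, Cxcl2, Cxcr2 and Csf3r) against Ltf, Camp and Ngp, coloured by group; azurophil-high cells had at most 0.0144% and late cells up to 3.90% of these late genes.

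Azurophil granule genes were nearly confined, by the grouping itself, to the 9 cells, and the 14 barcodes above carried them too. Elane, neutrophil elastase, took 1.50 to 3.20% of UMIs in each azurophil-high cell (median 2.77%), and its summed level was 25496 CPM (UMIs of the gene per 1000000 gene UMIs of the group) in azurophil-high, 164 in intermediate and 38.0 in late cells. It was found in 9 of 9, 3 of 62 and 3 of 48 cells, which for the last 2 groups is 4.84 and 6.25%, against 4.26% of endothelial barcodes, where free RNA can supply it. Mpo, myeloperoxidase, was at 11526, 25.8 and 25.3 CPM in azurophil-high, intermediate and late cells. Prtn3, proteinase 3, was at 14409, 142 and 12.7 CPM. Ctsg, cathepsin G, had 266 UMIs, all of them in the 9 azurophil-high cells. Ms4a3, a membrane protein of granulocyte precursors that was no part of the grouping, was found in 9 of 9, 9 of 62 and 1 of 48 cells, at 1110, 60.2 and 12.7 CPM. Of the 6 genes of this list only Bpi had no UMI.

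The specific granule genes differed in which cells held them. Ltf, Camp and Ngp set the stages, so their summed level is higher in intermediate than in late cells by the grouping itself. Camp was found in 9 of 9 azurophil-high cells (0.0256 to 6.66% of UMIs), 61 of 62 intermediate cells and 16 of 48 late cells, at 29228, 51228 and 431 CPM. Ltf was found in 1 of 9 azurophil-high, 59 of 62 intermediate and 1 of 48 late cells, at 7.45, 10610 and 12.7 CPM. In azurophil-high cells Camp took a median of 1.89% of UMIs, where Ltf had 1 UMI in all, but the range was wide: in 4 of the 9 the 3 genes together stayed under 1%. Ngp was at 3010, 47149 and 2332 CPM in azurophil-high, intermediate and late cells and was found in 8 of 9, 62 of 62 and 29 of 48 of them. Fcnb, ficolin B, a lectin of the granules, had the opposite emphasis, with 9 of 9, 19 of 62 and 0 of 48 cells and 1952, 469 and 0 CPM; late cells were at least 12.3-fold lower than intermediate cells, counting 3 UMIs for the late group.

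The remaining specific granule genes were not used to set the stages, although Lcn2 and Cd177 are among the 6 genes of which the rule asked for 2. Chil3, a chitinase-like protein, was at 738 CPM in azurophil-high, 3223 in intermediate and 38.0 in late cells, where it was found in 6 of 9, 44 of 62 and 2 of 48 cells. Cybb, the membrane subunit of the oxidase that makes superoxide, was at 231, 1097 and 152 CPM. Lcn2, lipocalin 2, which binds bacterial siderophores, was at 939 CPM in azurophil-high, 17344 CPM in intermediate and 6475 CPM in late cells. Cd177, a surface protein of neutrophils, was at 156, 1351 and 532 CPM. Hp (haptoglobin) and the collagenase Mmp8 did not follow this course: Hp was at 1542, 1669 and 2509 CPM and Mmp8 at 0, 503 and 710 CPM in azurophil-high, intermediate and late cells. Ptx3 had no UMI, and Olfm4 had 9 UMIs in 1 cell.

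Ratios between stages were taken as the log2 of summed CPM, granule-low over granule-high, with 1 CPM added, and a gene was called at 2-fold (log2 of 1). Among the 2656 genes with at least 20 UMIs, 12.2% were called higher and 10.5% lower in granule-low cells, with no replicates and so no test. These were 324 and 279 genes. Without the cells called to hashtag 2, 399 genes kept 20 UMIs, of which 103 were called higher and 54 lower. With every cell thinned to 500 UMIs, 358 genes kept them, of which 72 were called higher and 31 lower. Of 10 specific granule genes with that many UMIs, 0 were called higher and 7 lower, with a median of −2.31, beside 0.09 over all 2656 genes. Of the 7, Ltf, Camp and Ngp set the stages and Lcn2 and Cd177 entered the rule. Over the 5 genes of the list outside both, 0 were called higher and 2 lower, with a median of −0.90. These 2 were Chil3 and Cybb. Chil3 had 40.1 CPM in granule-low and 2637 CPM in granule-high cells, a log2 ratio of −6.01 (−7.67 to −4.81). Cybb had 112 and 885 CPM, −2.97 (−3.87 to −2.21). The 5 azurophil genes gave a median of 0.69. For late over intermediate cells, that is with the 9 azurophil-high cells left out, the 20 UMIs were asked of those 110 cells, which left 1766 genes. Of these 19.7% were called higher and 19.3% lower, and their median was 0.04. Outside the genes of the rule and the stages, 3 of 5 specific granule genes (Chil3, Cybb and Fcnb) were lower, with a median of −2.84. Of the azurophil genes only Elane and Prtn3 kept 20 UMIs, and 1 intermediate cell held 35 of the 38 intermediate UMIs of Elane.

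The promoters of Ltf, Ngp and Camp are shown because these genes set the stages. C/EBP epsilon, a factor that drives specific granule genes, and its relatives bind sites close to the letters TTNNGCAA, which read TTGCNNAA on the other strand. Both were searched in the 250 bases before the gene start in the RefSeq promoter table (GRCm38.p6, not the GRCm39 build of the count files), after several forms of the motif had been tried. At least 1 match lay in 9.55% of 27025 genes, in 6 of the 11 specific granule genes in the table (Ltf, Ngp, Lcn2, Fcnb, Mmp8 and Ptx3) and in 0 of 6 azurophil genes. Capitals mark the matches, which are letters in a window and were not tested for binding. In Ltf the match begins 75 bases before the start, in Ngp the 2 matches begin 138 and 11 bases before it, and Camp has none in this window.
Ltf (chr9:111019042-111019291, plus strand): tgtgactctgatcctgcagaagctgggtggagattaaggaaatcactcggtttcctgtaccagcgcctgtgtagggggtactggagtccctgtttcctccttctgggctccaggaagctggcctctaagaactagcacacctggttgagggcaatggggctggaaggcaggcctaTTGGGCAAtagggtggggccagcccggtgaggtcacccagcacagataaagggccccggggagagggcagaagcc
Ngp (chr9:110419558-110419807, plus strand): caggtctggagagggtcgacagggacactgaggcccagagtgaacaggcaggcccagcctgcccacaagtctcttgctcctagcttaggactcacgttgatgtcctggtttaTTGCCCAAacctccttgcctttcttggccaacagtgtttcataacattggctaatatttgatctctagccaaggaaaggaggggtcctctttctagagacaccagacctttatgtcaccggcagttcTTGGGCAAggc
Camp (chr9:109849457-109849706, minus strand): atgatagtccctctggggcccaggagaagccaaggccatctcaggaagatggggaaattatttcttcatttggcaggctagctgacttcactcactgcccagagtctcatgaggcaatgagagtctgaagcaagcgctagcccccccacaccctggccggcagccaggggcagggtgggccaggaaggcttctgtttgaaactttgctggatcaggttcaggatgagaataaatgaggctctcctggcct

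Of the gelatinase granule genes with at least 20 UMIs, Mmp9, Adam8 and Mmp25 had no UMI in azurophil-high cells. Mmp9, gelatinase B, was found in 0 of 9 azurophil-high cells, 49 of 62 intermediate cells and 46 of 48 late cells, at 0, 1510 and 2610 CPM. Between granule-low and granule-high cells it had 1651 and 1094 CPM, a log2 ratio of 0.59 (0.34 to 0.85), under the 2-fold limit. Adam8, a metalloprotease, had 337 and 171 CPM, 0.97 (0.36 to 1.58). Itgam, the CD11b integrin chain, had 297 and 408 CPM, −0.46 (−1.03 to 0.07). Of the 4 genes of this list with at least 20 UMIs, only Mmp25, a membrane-bound metalloprotease with 23 UMIs, was called lower, and its interval (−3.77 to 0.38) included no change. The share called lower over all 2656 genes was 10.5%.

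The calgranulins S100a8 and S100a9, which together bind calcium and zinc, were present in all 119 cells because the rule asked for them. S100a9 took 1.10 to 6.92% of UMIs in azurophil-high cells, 2.52 to 30.4% in intermediate cells and 0.294 to 31.4% in late cells, with medians of 5.16, 19.5 and 17.0%. Retnlg, a resistin-like secreted protein and another of the 6 genes of the rule, was found in 1 of 9, 47 of 62 and 47 of 48 cells, with medians of 0, 1.20 and 5.78% of UMIs. It had 35814 CPM in granule-low and 12620 CPM in granule-high cells, a log2 ratio of 1.50 (1.44 to 1.57). S100a6, another calcium-binding S100 protein, had 9120 and 3501 CPM, 1.38 (1.26 to 1.50), and no UMI in the azurophil-high cells. Ccl6, a chemokine, was found in 0 of 9, 12 of 62 and 41 of 48 cells and had 2733 CPM in granule-low and 115 CPM in granule-high cells, 4.55 (4.07 to 5.10). Wfdc21, a small secreted whey acidic protein, went the other way, with 2508 and 5244 CPM, −1.06 (−1.24 to −0.89). Of the 9 genes of this list with at least 20 UMIs, 6 were called higher and 1 lower, and outside the 3 that entered the rule, 5 of 6 were called higher and 1 lower. The shares over all 2656 genes were 12.2% higher and 10.5% lower.

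**Figure D3:**
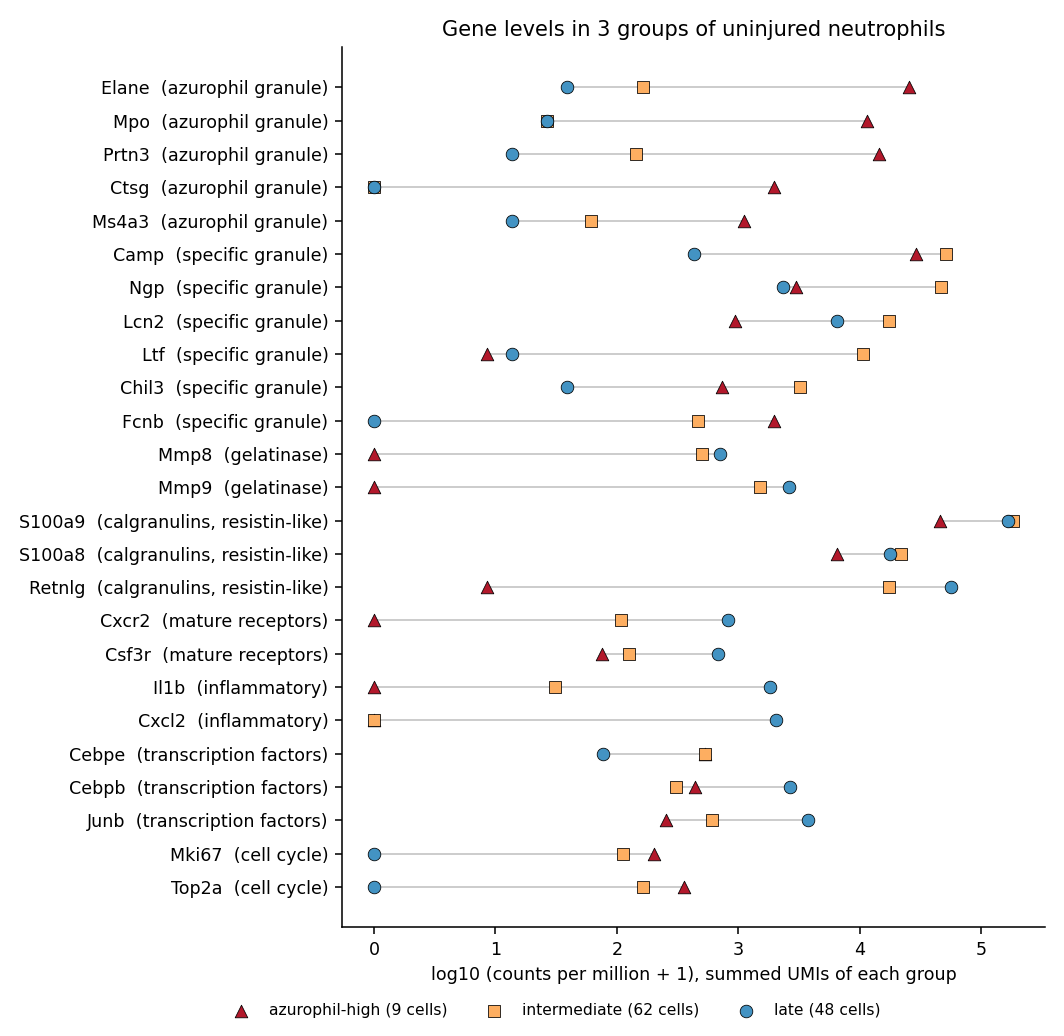
Level of 25 granule, receptor, inflammatory, transcription factor and cell-cycle genes, as log10 of CPM plus 1, in azurophil-high (red triangles, 9 cells), intermediate (orange squares, 62 cells) and late (blue circles, 48 cells) uninjured neutrophils; each symbol is the sum over the cells of a group, with no replicates. Elane, Mpo, Prtn3 and Ctsg are highest in azurophil-high cells, Ltf, Camp and Ngp in intermediate cells, and Retnlg, Cxcr2, Il1b and Cxcl2 in late cells. Elane, Mpo, Prtn3, Ctsg, Ltf, Camp and Ngp set the groups, so their order follows at least in part from the grouping.

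Receptors of mature neutrophils were mostly higher in the granule-low cells. Of 14 such genes with at least 20 UMIs, 11 were called higher and 0 lower, with a median log2 ratio of 2.00. Over all 2656 genes 12.2% were called higher and 10.5% lower. Cxcr2, the chemokine receptor by which neutrophils leave the marrow, was found in 0 of 9 azurophil-high, 19 of 62 intermediate and 35 of 48 late cells. It had 521 CPM in granule-low and 77.9 CPM in granule-high cells, 2.72 (2.05 to 3.47). Csf3r, the receptor of the growth factor G-CSF, had 457 and 112 CPM, 2.02 (1.40 to 2.67). Unlike Cxcr2, it was found in azurophil-high cells, in 6 of 9, beside 21 of 62 intermediate and 30 of 48 late cells. Il1r2, a decoy receptor of interleukin 1, had 601 and 109 CPM, 2.45 (1.86 to 3.08). Clec4d and Clec4e, lectins that sense microbial glycolipids, had ratios of 5.03 (3.52 to 7.50) and 2.84 (1.93 to 3.91), and Clec4d was found in 0 of 9, 3 of 62 and 22 of 48 cells.

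The exceptions among the receptors were Fpr2, a formyl peptide receptor, Fcgr3, an Fc receptor, and Ltb4r1, the leukotriene B4 receptor. Fcgr3 had 425 CPM in granule-low and 277 CPM in granule-high cells, 0.61 (0.10 to 1.12). Ltb4r1 had 184 and 349 CPM, −0.92 (−1.64 to −0.26), and was called lower for late over intermediate cells at −1.47. Selplg, a selectin ligand by which neutrophils roll along vessel walls, had 521 CPM in granule-low and 99.8 CPM in granule-high cells, 2.37 (1.75 to 3.04). It was at 112 CPM in azurophil-high, 103 in intermediate and 735 in late cells. Cxcr4, which holds neutrophils in the marrow and returns on aged cells, was found in 3 of 9, 15 of 62 and 16 of 48 cells and was called higher, at 1.42 (0.50 to 2.36), on 43 UMIs. Of the 5 genes of the aged neutrophil list it was the only one with 20 UMIs.

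Inflammatory transcripts were concentrated in the late cells. Any UMI of Il1b, Cxcl2 or Cxcr2 was found in 0 of 9 azurophil-high, 20 of 62 intermediate and 45 of 48 late cells. Cxcr2, which is on the receptor list, was found in 19 of the 62 intermediate cells. Il1b, the cytokine interleukin 1 beta, was found in 0, 4 and 35 cells of the 3 groups, and had 1154 CPM in granule-low and 21.8 CPM in granule-high cells, 5.66 (4.64 to 7.06). Cxcl2, a chemokine that draws neutrophils, had 163 UMIs in 25 late cells and none in any other neutrophil. Its level in granule-low cells was at least 140-fold higher, counting 3 UMIs for the granule-high cells, and 26.4% of its UMIs came from 1 cell, where it took 2.29% of the transcripts. Hcar2, a receptor for niacin and ketone bodies, had 385 and 31.2 CPM, 3.58 (2.62 to 4.77). Nfkbia, the inhibitor of NF-kB, had 1066 and 359 CPM, 1.57 (1.20 to 1.94). Tnf did not differ by 2-fold, at 112 and 109 CPM, 0.04 (−0.97 to 0.97). Of 8 genes of this list with at least 20 UMIs, 6 were called higher and 0 lower, with a median of 2.10, or 2.13 with Cxcl2 at its bound. Among all 2656 genes the shares were 12.2% higher and 10.5% lower.

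The Cxcl2 promoter is shown because the gene was detected in late cells and in no other neutrophil. It holds 2 matches, in capitals, to an NF-kB-type motif, searched on both strands, 97 and 78 bases before the start. Such a match lay in 1.40% of the 27025 genes and in 5 of 13 genes of the inflammatory list in the table, and Il1b has none in this window.
Cxcl2 (chr5:90903649-90903898, plus strand, GRCm38.p6): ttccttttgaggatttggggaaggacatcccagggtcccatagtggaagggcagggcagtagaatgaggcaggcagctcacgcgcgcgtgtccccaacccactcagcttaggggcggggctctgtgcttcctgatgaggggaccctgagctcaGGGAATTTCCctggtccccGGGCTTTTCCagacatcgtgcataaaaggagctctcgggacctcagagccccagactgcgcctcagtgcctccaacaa

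Transcription factors of granulocyte development differed between the 3 groups too. Cebpe, which drives specific granule genes, was found in 9 of 9 azurophil-high, 36 of 62 intermediate and 4 of 48 late cells, at 529, 534 and 76.0 CPM. Cebpb, its relative of mature and emergency granulopoiesis, was at 440, 305 and 2648 CPM. In granule-low and granule-high cells Cebpb had 1795 and 359 CPM, 2.32 (1.99 to 2.66), and Cebpe 168 and 561 CPM, −1.73 (−2.46 to −1.08). Junb, an AP-1 subunit, had 2460 and 511 CPM, 2.26 (1.99 to 2.55). Spi1, the myeloid factor PU.1, did not differ by 2-fold, at 625 and 561 CPM, 0.16 (−0.25 to 0.55). Myb and Gfi1, factors of early precursors, were found in 9 and 7 of 9 azurophil-high cells, 8 and 4 of 62 intermediate cells and 0 and 0 of 48 late cells. They had only 37 and 20 UMIs in all, and late cells were the shallowest group. Counting 3 UMIs for the late group, Myb was at least 1.24-fold lower there than in intermediate cells, and no limit could be set for Gfi1. Of all 12 factors, 5 were called higher and 1 lower, and the 5 include Cebpa (1.62) and Myb (1.12), which were found in 7 and 9 of the 9 azurophil-high cells and in 1 and 0 late cells. Higher and lower calls made up 12.2 and 10.5% of all 2656 genes.

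Cell-cycle genes were lower in the late cells. Mki67, the proliferation antigen Ki-67, was found in 6 of 9, 8 of 62 and 0 of 48 cells, and Top2a, which untangles DNA, in 6, 11 and 0. Ube2c, which acts at mitotic exit, had 192 CPM in granule-low and 633 CPM in granule-high cells, −1.71 (−2.39 to −1.10), with 227 UMIs in 14 cells. Of 12 cell-cycle genes with at least 20 UMIs, 0 were called higher and 9 lower between granule-low and granule-high cells, with a median of −1.53. All 11 that kept 20 UMIs without the azurophil-high cells were lower for late over intermediate cells, with a median of −2.10 when genes with no UMI in late cells were set at their bound of 3 UMIs. Lower calls made up 10.5% of all 2656 genes in the first comparison and 19.3% of 1766 genes in the second. Late cells are the shallowest of the 3 groups, and the comparison after thinning stands above.

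**Figure D4:**
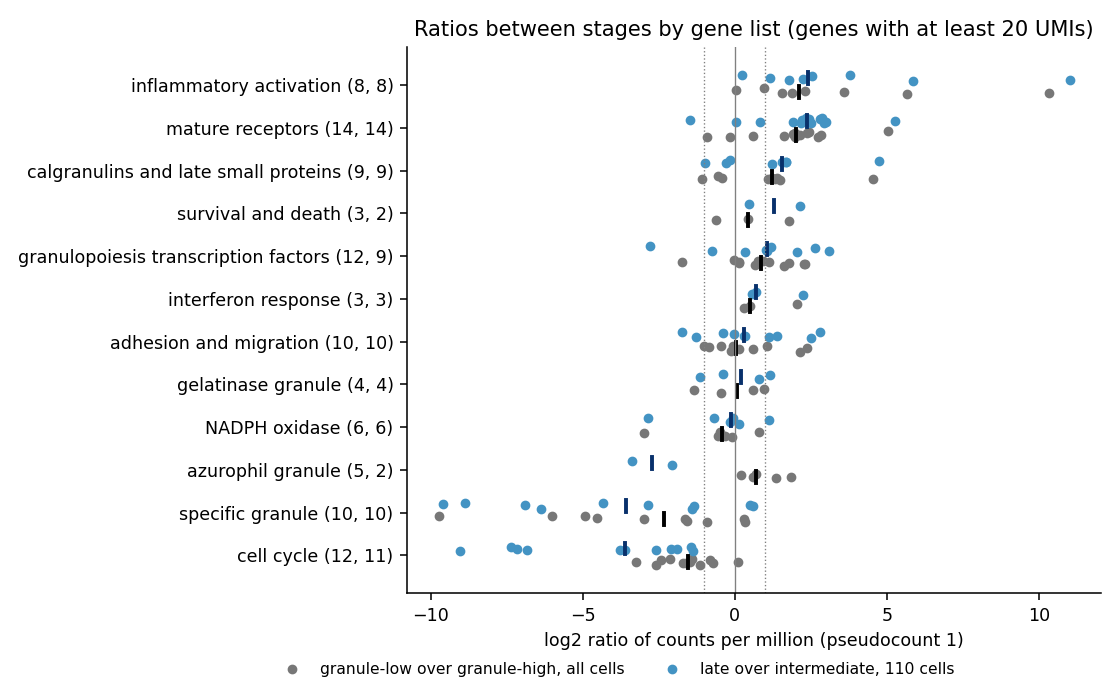
Log2 ratios of CPM (pseudocount 1) by list: granule-low over granule-high for genes with at least 20 UMIs in all 119 cells (grey) and late over intermediate for those with as many in the 110 cells (blue), with both numbers of genes in brackets, bars at the medians and dotted lines at 2-fold. Some of the farthest points, such as Cxcl2 at the right, are genes with no UMI in 1 of the groups, whose ratios depend on the pseudocount. The median of the mature receptors is 2.00 in grey and 2.39 in blue.

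Of 6 subunits of the NADPH oxidase only Cybb was called, and Cyba had 1555 CPM in granule-low and 2192 CPM in granule-high cells, −0.50 (−0.73 to −0.26), while the cytosolic subunit Ncf1 had a ratio of −0.33 (−0.70 to 0.03). Interferon-induced genes were sparse: 3 of 14 reached 20 UMIs and 3 had none. Slfn1 had 297 and 71.7 CPM, 2.03 (1.26 to 2.87), and Ifitm3 had 970 and 680 CPM, 0.51 (0.18 to 0.84). Of 10 adhesion and migration genes 3 were called higher and 1 lower, beside 12.2 and 10.5% of all 2656 genes. The integrin chain Itgb2 had 393 and 427 CPM, −0.12 (−0.62 to 0.36). Mcl1, which keeps short-lived neutrophils from dying, had 1298 and 374 CPM, 1.79 (1.45 to 2.15), and was the only 1 of 3 survival and death genes called. None of these short lists was tested against the shares over all genes. Of 10 listed stefins and cystatins, inhibitors of cysteine proteases, 8 are in the matrix, and Cstb alone reached 20 UMIs, at 80.1 and 56.1 CPM, 0.51 (−0.76 to 1.71).

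Among all genes with at least 50 UMIs, those with the lowest ratios, beyond the granule genes above, included Ccnb2, cyclin B2, at −3.29 (−6.45 to −1.44). Those with the highest included Slc7a11, the cystine transporter, with 785 and 43.6 CPM, 4.14 (3.35 to 5.09), in 33 of 48 late and 10 of 62 intermediate cells. Asprv1, an aspartic protease, had 465 and 28.1 CPM, 4.00 (3.03 to 5.25). Dusp1, a phosphatase of early stress responses, had 577 and 68.6 CPM, 3.05 (2.37 to 3.83), and Pim1, a kinase, had 353 and 49.9 CPM, 2.80 (1.97 to 3.75). Some extreme ratios rested on single cells. A single cell gave 59.8% of the 87 UMIs of the cartilage protein gene Comp, and likewise 50.8% of those of Gpx3 and 66.7% of those of Fabp4.

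The genes of highest level were led by S100a9, with 62008 UMIs. Of the others not yet given, Tmsb4x, thymosin beta 4, had 14577 CPM in granule-low and 14350 CPM in granule-high cells, 0.02 (−0.06 to 0.10), and Actb, beta actin, 12125 and 12277 CPM, −0.02 (−0.10 to 0.07). Lyz2, lysozyme, had 6147 and 8268 CPM, −0.43 (−0.55 to −0.31), and was at 775 CPM in azurophil-high cells. The noncoding Malat1 had 6587 and 4168 CPM, 0.66 (0.53 to 0.79), and S100a11 had 8222 and 3523 CPM, 1.22 (1.10 to 1.35). Gm42418, which overlaps ribosomal RNA, had 23945 and 24052 CPM.

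Transcripts of other cell types were low in these cells, with the exceptions given here, and their part in the results was not tested. Of 8 monocyte genes 6 had a UMI, at a summed 4537 CPM in azurophil-high, 1162 in intermediate and 925 in late cells, most of it from Ly6c2 (2556, 964 and 798 CPM) and Plac8 (1930, 172 and 25.3 CPM), while Ccr2 and Ms4a4c were at 0. Of 8 macrophage genes 5 were at 0, of which C1qa and C1qb were limited by the rule and Mrc1, Cd163 and Ms4a7 were not, and Apoe had 20 UMIs in 5 cells. The 4 fibroblast genes summed to 0 CPM in azurophil-high, 1962 in intermediate and 976 in late cells, with 45.4% of their UMIs in 1 cell and all of them in 13 of the 119 cells. Neutrophil transcripts were also found in other droplets of the uninjured library: 12.2% of its 985 endothelial barcodes (median 2007 UMIs) had a UMI of S100a9, 3.45% of Ngp, 2.74% of Camp, 1.73% of Retnlg and 0.711% of Ltf. These shares were at most 0.826% in the endothelial barcodes of the injured libraries.

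The surface antibodies did not enter the rule that chose the cells. They were compared after thinning each cell to 30 antibody counts and leaving out shallower cells and aggregates, which kept 108 neutrophils and 1858 other barcodes of the uninjured library. Before that filter, 985 of the 2076 other barcodes were endothelial and only 66 were Ptprc-positive. The ratios therefore do not set neutrophils against other leukocytes. The planned test over animals could not be made, because only 1 animal had 10 or more neutrophils. Of 137 antibodies seen in at least 20 cells, 6 were at least 2-fold higher (4.38%) and 7 at least 2-fold lower (5.11%) in mean count on neutrophils, with 0.1 added to each mean. Ly-6G/Ly-6C (Gr-1), the classical granulocyte antibody, was found on 82.4% of neutrophils and 5.92% of other cells, a log2 ratio of 3.91. CD11b, the integrin of myeloid cells, was found on 71.3 and 4.95%, a ratio of 3.16. CD24, a heat-stable antigen that is high on immature neutrophils, was found on 43.5 and 6.73% (1.98), and CD43, a leukocyte sialoprotein, on 31.5 and 3.01% (1.84). VISTA, an immune checkpoint protein, was on 44.4 and 17.4% (1.10) and the integrin chain CD49d on 22.2 and 7.05% (1.03).

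The antibodies that were lower on neutrophils included CD31, the endothelial protein of Pecam1, a gene that the rule limited. CD200 was found on 16.7% of neutrophils and 60.8% of other cells (−2.24), CD38 on 11.1 and 47.5% (−1.96), CD317 on 2.78 and 23.6% (−1.62), CD49a on 29.6 and 53.9% (−1.30), CD49f on 63.0 and 82.2% (−1.22), CD39 on 37.0 and 54.4% (−1.15) and CD31 on 8.33 and 25.5% (−1.12). The single-target Ly-6G antibody gave few counts, on 8.33% of neutrophils and 0.915% of other cells, with a ratio of 0.75. CD45 was on 11.1 and 1.94%, CD44 on 15.7 and 5.97%, Ly-6C on 29.6 and 34.6%, CD16/32 on 29.6 and 29.7%, and CD182, the protein of Cxcr2, on 21.3 and 23.1%. Siglec-F was on 0.926 and 0.861%, CD115 on 2.78 and 2.64%, CD117 on 6.48 and 6.03%, CD14 on 5.56 and 4.57%, F4/80 on 6.48 and 5.60%, and the 3 isotype controls on 3.70 to 8.33% of neutrophils and 3.77 to 7.43% of other cells. Unthinned, Gr-1 was on 84.9% of neutrophils and 24.3% of other cells, at medians of 5 and 0 counts, while the median total was 55 and 142.5 antibody counts.

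Granule-low and granule-high cells were compared in the same way. Of 49 antibodies seen on at least 20 neutrophils, 0 were 2-fold higher and 0 were 2-fold lower (0 and 0%) on 47 granule-low against 61 granule-high cells. Gr-1 was found on 89.4% of granule-low and 77.0% of granule-high cells, a log2 ratio of mean counts of 0.55, CD11b on 61.7 and 78.7% (−0.31), CD24 on 38.3 and 47.5% (−0.33) and CD49d on 14.9 and 27.9% (−0.45). CD182 was on 25.5 and 18.0% (0.43), beside the Cxcr2 transcript ratio of 2.72. The ratio farthest from 0 among the 49 was that of CD185, a B cell chemokine receptor, on 17.0 and 36.1% (−0.85). Unthinned, CD43 was on 28.8% (17.1 to 43.1) of granule-low and 62.7% (50.0 to 74.2) of granule-high cells, and after thinning on 25.5 and 36.1% (−0.33). The median was 57 and 51 antibody counts per cell.

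The azurophil-high cells lie on both sides of that limit, and the antibodies were also counted, unthinned, in the 3 groups. Gr-1 had at least 1 count on 1 of 9 azurophil-high cells (11.1%, 0.281 to 48.2), 54 of 62 intermediate cells (87.1%, 76.1 to 94.3) and 46 of 48 late cells (95.8%, 85.7 to 99.5), at medians of 0, 4 and 7 counts. How many of the 138 panel antibodies would differ as much between these groups was not counted. CD49d was on 8 of 9 azurophil-high cells (88.9%, 51.8 to 99.7), 18 of 62 intermediate cells (29.0%, 18.2 to 41.9) and 8 of 48 late cells (16.7%, 7.48 to 30.2). CD43 was on 7 of 9 (77.8%), 37 of 62 (59.7%, 46.4 to 71.9) and 13 of 48 (27.1%, 15.3 to 41.8), where the intervals of azurophil-high and intermediate cells overlapped. CD11b was on 5 of 9, 52 of 62 and 37 of 48 cells and CD24 on 8 of 9, 35 of 62 and 30 of 48. CD117, the protein of Kit, was on 1 of 9, 5 of 62 and 7 of 48. The median total was 61, 51 and 57 antibody counts per cell. After thinning, Gr-1 was on 0 of 8, 47 of 56 and 42 of 44 cells and CD49d on 7 of 8, 13 of 56 and 4 of 44. The antibodies played no part in the grouping, but the comparison was chosen after values were seen, on cells mostly of 1 animal and 9 azurophil-high cells in all.

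**Figure D5:**
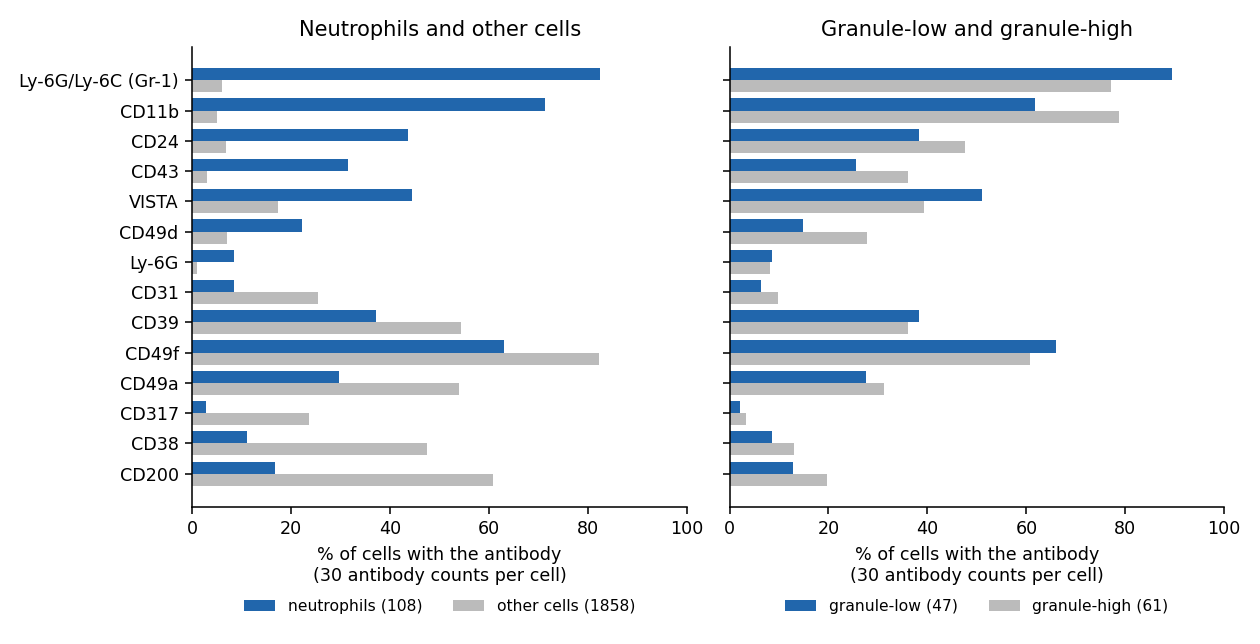
Percentage of uninjured cells with at least 1 count of each antibody after thinning to 30 antibody counts per cell. Left: neutrophils (blue, 108 cells) and other cells (grey, 1858 cells), where Gr-1 was on 82.4 and 5.92%. Right: granule-low (blue, 47 cells) and granule-high (grey, 61 cells) neutrophils, where it was on 89.4 and 77.0%.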

How the data were processed

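Per the file headers, the deposited matrices of raw UMI counts came from Cell Ranger 6.0.2; bcl2fastq and the GRCm39 (mm39) build are named in the submitters' processing notes. Per the labels' protocols, tissue was dissociated enzymatically (dispase II, collagenase II) with lysis of red cells, and the 10x 5' v2 assay was run with TotalSeq-C hashtags and the mouse universal cocktail. Each matrix held 32285 genes and 142 antibody features (138 panel antibodies, 3 of them isotype controls, and 4 hashtags). The minimum of 500 gene UMIs keeps 3161 critical, 2902 of 3071 subcritical and 2195 uninjured barcodes, with 7138662, 4954129 and 5681346 gene UMIs in all and medians of 1608, 1286 and 1816 per barcode. No doublet caller was run: 1 critical and 1 uninjured neutrophil carried at least 5 counts of several hashtags and were kept. Counts were summed over cells and given as CPM. Shares have exact Clopper-Pearson intervals and ratios exact binomial intervals, from numpy 2.4.6, scipy 1.17.1 and pandas 2.3.3 under Python 3.11.15. The ratio was run on simulated sums with known changes and counting error only. These held no differences between cells, so they do not bear on ratios that rest on few cells. Cells with 1000 or more antibody counts of which a single antibody gave over 50% were treated as aggregates. The tests over animals that had been planned for the antibodies were not made. The deposited counts pool reads without regard to animal, so an animal is known only by its hashtag. UMIs of repeated gene symbols (38) were kept apart by gene identifier.

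Named genes were, for each list, the up to 4 of highest CPM and up to 2 of largest ratio with at least 20 UMIs, the 15 genes of highest CPM outside ribosomal and mitochondrial genes and the 10 of largest ratio each way with at least 50 UMIs; others were chosen after their values were seen. The neutrophil rule, the stages and all lists were chosen with earlier results of these data known. Promoter sequences are from RefSeq (GRCm38.p6), matched by symbol. A few listed genes are not reported here.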

Additional observations from a re-analysis of the deposited data

Results flagged for a closer look

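Among the 4 uninjured hashtags, the number of called neutrophils was 96 for hashtag 2 and 2, 1 and 1 for the others. The gap to the next hashtag is 0.989 of the whole range, above Dixon's 95% critical value for 4 values. As shares of the called cells of each hashtag, 10.0, 24.0, 1.27 and 0.613%, the values were under it. In the critical library the single called neutrophil gave values of 1 cell and 0.350% for hashtag 4, with 0 for the other 3 hashtags. A single cell gives a ratio of 1 on whichever hashtag it falls, so passing the same critical value carries no information there. Chance flags about 1 in 20 groups of 4 normally distributed values, and cell counts need not follow that rate.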

How the results depend on the processing

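The share of neutrophils in the uninjured library was 4.69 to 5.88% under other limits on S100a8 and S100a9, on the granule genes asked for and under thinning to 500 UMIs. Among barcodes with a hashtag call it was 0.489% in the subcritical and 15.1% in the uninjured library, and 1.53% over the 3 uninjured hashtags other than hashtag 2. Leaving out the cells called to each hashtag in turn, with uncalled barcodes kept, gave 1.28 to 5.81% (1.28% without cells called to hashtag 2). This need not remove an animal in full: hashtag 2 was the top hashtag of 105 neutrophils, of which 96 were called to it. With at least 1000 gene UMIs the subcritical share was 0.497%. The granule-low share, 43.7%, was 34.5% at a limit of 0.5% and 47.9% at 2%. It was 43.2 to 47.8% leaving out the cells called to each hashtag. The number of genes called higher and lower in granule-low cells, 324 and 279, was 420 and 707 without azurophil-high cells and 642 and 727 with every cell thinned to 500 UMIs over the same 2656 genes, many of which then had few UMIs. Over genes that kept 20 UMIs it was 348 and 341 without azurophil-high cells (1766 genes) and 72 and 31 when thinned (358 genes). Leaving out the cells called to each hashtag gave 324 to 685 and 273 to 625 over the same 2656 genes. Hashtag 2 alone moved the counts by over 1.5 times, to 685 and 625, or to 103 and 54 of the 399 genes that kept 20 UMIs. Without azurophil-high cells Mpo was at −0.026, Ctsg at 0 and the azurophil median at −2.08, values that rest on too few UMIs to read: Ctsg had 0, Mpo 2 in late and 6 in intermediate cells, and Elane 3 and 38, of which 35 lay in 1 cell. Apod, a gene the fibroblasts also express, was at 3.26 without the cells holding at least 3 UMIs of the fibroblast genes, against −2.44. The number of antibodies 2-fold lower on granule-low cells was 1 with no filter on low counts and 1 at a limit of 0.5%, against 0. Without the cells called to hashtag 2 no antibody was seen on enough neutrophils to compare. The alternatives set for the antibody test, another tool with its own normalization, the replicate block and other hashtag calls, were not run, since the test was not made. No paired analysis was possible because 1 animal held nearly all neutrophils. The azurophil-high grouping, thinning of all cells, the 20 UMIs asked for anew, fibroblast filter and hashtag-restricted shares were chosen after seeing the data. Genes under 20 UMIs were not called, and all gene values come mainly from 1 animal.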
